A study of Mus musculus with 18 samples.

Results

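Doxorubicin (DOX), an anthracycline that traps topoisomerase II on DNA, was compared with its vehicle in the uterus of mice that had also been given estradiol (E2). The comparison rests on 6 of the 18 libraries of the study, the 3 labelled DOX with E2 and the 3 labelled PBS with E2. Across 15494 genes with enough counts to test, it was asked which functions rose and fell with DOX, and whether each gene went further in the direction in which E2 alone had moved it or against that direction. The E2 direction was taken from PBS E2 against PBS OIL, so the PBS E2 libraries enter both comparisons.

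The study sequenced total RNA of the whole uterus from adult CD-1 mice whose ovaries had been removed, which takes away the main source of their own estradiol and progesterone. CD-1 is an outbred stock, so the animals differ in genotype, and the labels give no transgene or mutant allele in any group. The 6 groups of 3 libraries were PBS or DOX, each combined with oil (OIL, the hormone vehicle), E2 or progesterone (P4). The groups used here are PBS E2 (saline and estradiol), DOX E2 (doxorubicin and estradiol), PBS OIL (saline and oil) and DOX OIL (doxorubicin and oil), with PBS P4 and DOX P4 beside them. The labels do not state doses, times, the hour of collection, or whether each library came from an animal of its own. The p-values rest on the spread between libraries of the same group, which may be in part technical. That spread was estimated over all 6 groups together, so the OIL and P4 libraries enter it. RNA of the whole organ mixes epithelium, stroma, muscle and vessels, so fewer cells of a type and less RNA per cell cannot be told apart.

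As background, estradiol binds the nuclear receptor ESR1 in uterine epithelium, stroma and muscle and sets off an early phase of water uptake and transcription, followed by growth in which ribosomes, chaperones and secretory organelles are built and the epithelium divides. Cells that make more secreted protein enlarge the endoplasmic reticulum (ER), where chains are pushed through the translocon, folded, given sugars and loaded into coated vesicles, while the proteasome breaks down proteins that are not needed. Doxorubicin damages DNA, evicts histones and intercalates into chromatin, and the p53 pathway is a usual responder to it.

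The libraries held 18042357 to 39783785 counts, of which 2.63% to 4.79% came from mitochondrial genes. PBS E2 replicate 1 was the deepest library. Smooth muscle and stromal markers were present at high levels in all 6 E2 libraries, and the 12 glandular epithelial markers at lower ones, with mean log2 CPM of 2.01 to 2.58 in PBS E2 and 2.82 to 2.90 in DOX E2. The mean log2 CPM (library-size-normalised counts) of 20 smooth muscle markers was 8.43, 8.27 and 8.37 in PBS E2 and 8.07, 7.98 and 8.18 in DOX E2, and that of 20 stromal markers was 6.94, 7.24 and 7.36 in PBS E2 and 6.91, 6.73 and 6.94 in DOX E2. Fat cell RNA differed sharply between libraries. The mean log2 CPM of 21 adipocyte markers was 7.24, 4.21 and 5.47 in PBS E2 replicates 1 to 3 and 0.88, 0.84 and 3.82 in DOX E2 replicates 1 to 3. PBS E2 replicate 1 was the highest of the 6 and DOX E2 replicates 1 and 2 were the lowest. The part of fat and of the tissue that carries it in the results below was not tested. Counts from a fit with the adipocyte mean as a covariate are given beside the results. That covariate itself differs between the groups without overlap, so the fit cannot separate fat from DOX.

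DOX changed a large part of the E2-treated uterine transcriptome, with nearly equal numbers of rises and falls but deeper falls. Of the 15494 genes tested, 6358 were called (41.0%, edgeR quasi-likelihood F test, Benjamini-Hochberg adjusted p under 0.05), 3162 higher (20.4%) and 3196 lower (20.6%). In 49.3% of all tested genes the CPM of the 3 DOX E2 libraries did not overlap those of the 3 PBS E2 libraries. Changes of at least 2-fold were reached by 432 higher genes (2.79% of those tested) and 1374 lower genes (8.87%). Rises were mostly small, with 2092 of the higher genes under 1.5-fold, against 914 of the lower genes. Falls of more than 4-fold were seen in 257 genes between 4-fold and 8-fold and in 93 genes beyond 8-fold, against 79 and 18 rises. The split between rises and falls depends on the scaling. With total counts and no normalization factors, 31.2% of 5901 called genes were higher, against 49.7% here, and the median log2 fold change of all genes moved from 0.02 to -0.1. Without DOX E2 replicate 1, 1983 genes were higher. With the adipocyte mean as a covariate 3846 genes were called, 1678 of them higher. In a fit of only the groups compared 4365 genes were called, 1885 of them higher.

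Sorted by their E2 direction, the called genes went further more often than against. E2 alone changed 9519 genes (61.4%), 29.6% of all tested upward and 31.9% downward. Both comparisons were called for 4335 genes. Of these, 1895 were raised by E2 and raised again by DOX (further up), and 1819 were lowered by E2 and lowered again (further down). Against the E2 direction, 248 genes were raised by E2 and lowered by DOX, and 373 were lowered by E2 and raised by DOX. The remaining 894 raised and 1129 lowered genes had no E2 call. The 4 classes held 12.2%, 11.7%, 1.60% and 2.41% of all tested genes, and the last pair 5.77% and 7.29%. These counts are a description. A chance deviation of the PBS E2 libraries enters the comparisons with opposite sign and moves a gene towards the classes against E2. When the E2 direction was taken from DOX E2 against DOX OIL, which shares the DOX E2 libraries with the same sign and called 72.6% of genes, the genes against E2 were 192 instead of 621.

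**Figure D1:**
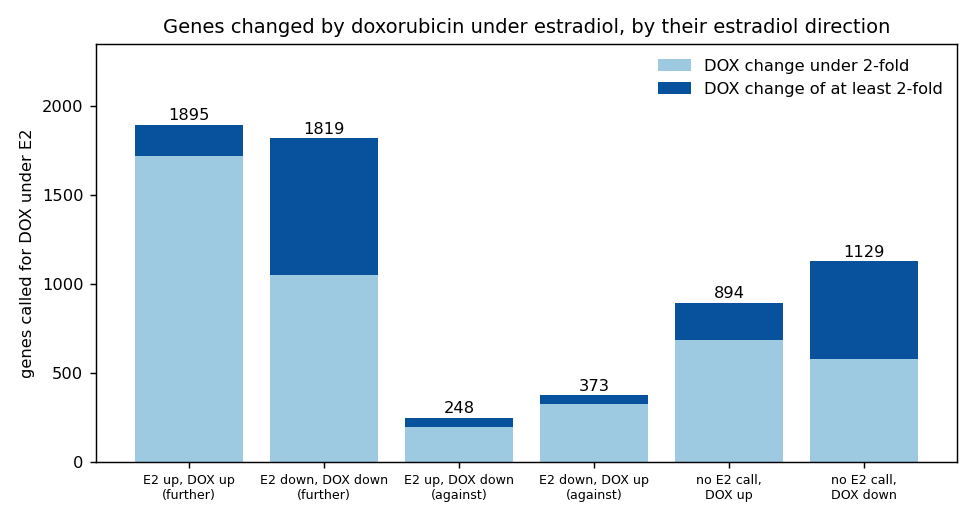
Genes called for DOX under E2 (y axis, number of genes) in the 6 classes by E2 direction (x axis), split by size of the DOX change. The further down class and the lowered genes without an E2 call hold most changes of at least 2-fold, 768 and 553 genes, against 177 among the genes further up.

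In all 4 classes with an E2 direction the DOX E2 libraries lay apart from PBS E2, by the choice of their genes. Over the genes further up, the mean log2 CPM relative to PBS OIL was 1.15, 0.78 and 0.90 in PBS E2 and 1.57, 1.5 and 1.48 in DOX E2. Over the genes further down it was -1.28, -0.84 and -0.98 in PBS E2 and -2.06, -2.07 and -1.96 in DOX E2. PBS E2 replicate 1 lay nearest to DOX E2 in both of these classes. Over the E2-raised genes that DOX lowered, the same mean was 0.84, 0.85 and 0.99 in PBS E2 and 0.11, 0.13 and 0.40 in DOX E2. Over the E2-lowered genes that DOX raised it was -0.74, -0.72 and -0.79 in PBS E2 and -0.10, -0.14 and -0.27 in DOX E2. Without DOX E2 replicate 1, 1241 genes were further up, 204 against and raised, 373 against in both directions, and 538 raised with no E2 call. Without PBS E2 replicate 2, 1255 genes were further up, and without PBS E2 replicate 3, 223 were against and raised and 391 against in all.

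**Figure D2:**
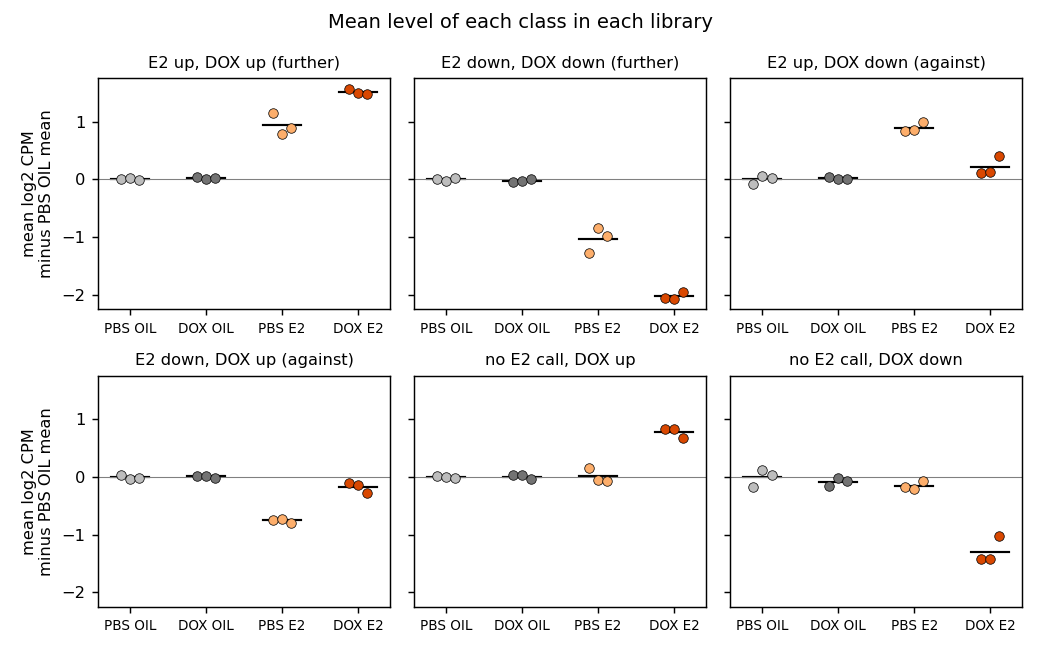
Mean log2 CPM of each class in each library, relative to the PBS OIL mean (y axis), for PBS OIL, DOX OIL, PBS E2 and DOX E2 (x axis). Points are libraries and lines are group means. DOX OIL sits near the level of PBS OIL in all 6 panels. By the definition of the classes, DOX E2 continues past PBS E2 in the first pair of panels and moves back from it in the next pair.

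Most genes that moved against the E2 direction were not called against the group without hormone. Between DOX E2 and PBS OIL 73.5% of all tested genes were called. No call was made for 151 of the 248 lowered genes and 251 of the 373 raised genes, which does not show that the levels are equal. Another 79 and 102 were still called in the E2 direction, and 18 and 20 had passed beyond PBS OIL. The median log2 difference between DOX E2 and PBS OIL was 0.11 in the lowered and -0.09 in the raised class. In the further classes it was 1.28 and -1.86, against 0.80 and -0.93 for E2 alone. The difference between DOX E2 and PBS OIL adds the E2 change and the DOX change that define the classes. By that definition the further classes lie beyond E2 alone and the classes against E2 move back from it. Only how far they moved is described here. With oil or progesterone in place of E2 the class medians were near 0. The medians of the log2 fold change of DOX under OIL and under P4 all lay between -0.06 and 0.02. Under E2 they lay between -0.99 and 0.53, away from 0 because the genes were chosen by their call and sign there. The genes were not chosen by their DOX change under OIL or P4, so these medians are not on equal terms. The DOX effect under E2 differed from that under OIL, with the same sign, for 3360 of the 6358 genes and from that under P4 for 3407 (22.9% of all tested genes were called in each test, 10.1% upward and 12.8% downward against OIL, 10.2% and 12.6% against P4). Both tests were passed by 2669 genes, among them 1043 of the genes further down and 717 of the genes further up. Both tests contain the difference between DOX E2 and PBS E2 by which the genes were called. The shared sign and the overlap of the tests are therefore in large part built in.

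Large changes of each class are given among genes whose 3 DOX E2 and 3 PBS E2 libraries did not overlap, which was a condition for naming them. The 5 largest rises beyond E2 were in genes at or below 10.2 CPM in every PBS E2 library. Uox, which encodes urate oxidase (chr3:146570426-146632305, plus strand on GRCm38), had 0.0891, 0.0464 and 0.233 CPM in PBS OIL, 0.78, 0.813 and 0.262 in PBS E2 and 7.44, 11.7 and 3.08 in DOX E2. The DOX E2 libraries were the highest, and the log2 fold change of DOX under E2 was 3.54 ± 0.57 (SE, adjusted p = 0.000244). Syt6, a synaptotagmin of vesicle fusion, had 2.87, 2.06 and 4.24 CPM in PBS E2 and 23.7, 34 and 14.2 in DOX E2, a log2 difference of 2.97 ± 0.42 (SE, adjusted p = 9.04e-05). Its level in the PBS OIL libraries was 0.134, 0.0929 and 0.186 CPM. Krt79, a keratin, rose from 1.78, 0.325 and 0.733 CPM to 8.0, 9.08 and 5.13 CPM (2.89 on the log2 scale). Chst13, a sulfotransferase of dermatan and chondroitin chains, rose from 3.37, 0.705 and 0.995 to 12.9, 17.8 and 8.13 CPM (2.88). Slc6a13, a GABA and taurine carrier, rose from 10.2, 0.596 and 3.25 to 38.1, 40.8 and 23.2 CPM (2.82), and PBS E2 replicate 1 was the highest vehicle library for Krt79, Chst13 and Slc6a13. The call for Uox was lost with the adipocyte covariate.

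Falls beyond E2 included the Wnt ligand gene Wnt6 and the clock output gene Dbp. Olfml1, which encodes a secreted olfactomedin-like protein, had 13.6, 20.1 and 17 CPM in PBS OIL and 8.7, 15.9 and 12.6 in DOX OIL. It had 8.46, 6.56 and 6.55 CPM in PBS E2 and 0.568, 0.309 and 0.739 in DOX E2, so each DOX E2 library was far below every library of the other 3 groups. The log2 fold change was -3.70 ± 0.34 (SE, adjusted p = 3.48e-06), and the effect differed from that under OIL by -3.26 ± 0.44 (SE, adjusted p = 0.00027). Abca8a, a lipid transporter of the ABC family (chr11:110025634-110095978, minus strand), had 21.9, 36.9 and 41.4 CPM in PBS E2 and 2.17, 1.86 and 3.57 in DOX E2 (-3.69 ± 0.36, SE, adjusted p = 4.58e-06). Wnt6, a secreted Wnt ligand, had 2.34, 15.1 and 17.6 CPM in PBS E2 and 0.878, 1.81 and 0.78 in DOX E2 (-3.33 ± 0.59, SE, adjusted p = 0.000472). Its level in PBS E2 replicate 1 was well below that of the other vehicle libraries. Dbp, a transcription factor driven by the circadian clock, had 56.5, 109 and 103 CPM in PBS E2 and 9.71, 8.46 and 10.6 in DOX E2 (-3.21 ± 0.28, SE, adjusted p = 2.09e-06).

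Genes that E2 had raised and DOX lowered most included a pair of surface receptors. Cd248, endosialin of stromal and perivascular cells (chr19:5068078-5070682, plus strand, a gene of 1 exon), had 45.6, 60.0 and 85.6 CPM in PBS OIL, 45.7, 233 and 288 in PBS E2 and 27.7, 20.0 and 39.6 in DOX E2. PBS E2 replicate 1 was at the PBS OIL level while the other vehicle libraries were several times higher, and DOX E2 lay below all of them, with a log2 fold change of -2.69 ± 0.48 (SE, adjusted p = 0.000493). Ccbp2, an older symbol of the atypical chemokine receptor Ackr2 that removes chemokines in lymphatics, had 1.78, 2.79 and 4.8 CPM in PBS OIL, 19.3, 16.9 and 29.5 in PBS E2 and 1.5, 2.17 and 6.61 in DOX E2 (-2.66 ± 0.52, SE, adjusted p = 0.000974). Its E2 rise of 2.81 on the log2 scale compares with a difference between DOX E2 and PBS OIL of 0.15, which was not called. Arc, an immediate early gene, had 11.7, 34.5 and 57.8 CPM in PBS E2 and 5.32, 6.4 and 11 in DOX E2 (-2.18 ± 0.49, SE, adjusted p = 0.0026). It stayed above PBS OIL, by 2.62. Slc7a11, the cystine carrier of glutathione synthesis, had 51.9, 32.1 and 39.1 CPM in PBS E2 and 14.3, 5.67 and 9.16 in DOX E2 (-2.08 ± 0.51, SE, adjusted p = 0.00438), and Foxc2, a transcription factor of lymphatic valves, 4.37, 3.69 and 5.61 CPM in PBS E2 and 0.568, 1.19 and 1.97 in DOX E2 (-1.85 ± 0.41, SE, adjusted p = 0.0023). With the adipocyte covariate, Ccbp2, Slc7a11 and Foxc2 were not called.

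Of the 5 genes that E2 had lowered and DOX raised most, 4 were below 10 CPM in every E2 library. Kcnh1, a voltage-gated potassium channel (chr1:192190774-192510159, plus strand), had 1.69, 1.9 and 2.66 CPM in PBS OIL, 0.473, 1.25 and 0.943 in PBS E2 and 5.11, 8.77 and 6.08 in DOX E2. Its fold change of 2.95 ± 0.46 (SE, adjusted p = 0.000178) carried it past PBS OIL, by 1.67 on the log2 scale. Ddit4l, which encodes an inhibitor of mTORC1 signalling (chr3:137621612-137628333, plus strand), had 92.4, 75.2 and 99.4 CPM in PBS OIL, 36.1, 34.9 and 30.2 in PBS E2 and 137, 98.4 and 101 in DOX E2. The E2 fall of Ddit4l was reversed by a DOX change of 1.73 ± 0.19 (SE, adjusted p = 1.02e-05). Psrc1, a microtubule-binding protein of the spindle and a p53 target, had 0.947, 1.63 and 0.786 CPM in PBS E2 and 4.03, 3.77 and 4.68 in DOX E2 (1.91 ± 0.39, SE, adjusted p = 0.00136). Oit1, a gene known from intestine, had 0.807, 1.57 and 1.31 CPM in PBS E2 and 4.91, 5.57 and 2.83 in DOX E2 (1.88 ± 0.31, SE, adjusted p = 0.000296). Slc5a9, a sodium-coupled sugar carrier, had 1.03, 1.46 and 1.1 CPM in PBS E2 and 4.91, 4.07 and 3.57 in DOX E2 (1.81 ± 0.33, SE, adjusted p = 0.000583). Oit1 and Slc5a9 were not called with the adipocyte covariate.

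Among genes without an E2 call, the 5 largest rises were at low levels in PBS E2. Gdf6, a BMP family ligand (chr4:9844372-9862345, plus strand), had 1.56, 0.813 and 2.57 CPM in PBS E2 and 34.6, 10.9 and 8.42 in DOX E2. DOX E2 replicate 1 was the highest by a wide margin, and the log2 fold change was 3.44 ± 0.57 (SE, adjusted p = 0.000303). Chi3l1, a chitinase-like secreted protein, had 1.34, 0.108 and 0.472 CPM in PBS E2 and 5.84, 13.7 and 7.72 in DOX E2 (3.70 ± 1.09, SE, adjusted p = 0.0135), but 1 PBS OIL library reached 6.83 CPM. Its call was lost without PBS E2 replicate 2 or 3. Tacr1, the receptor for substance P, had 3.2, 1.73 and 1.05 CPM in PBS E2 and 8.11, 19 and 8.46 in DOX E2 (2.54 ± 0.52, SE, adjusted p = 0.00147). Krt12, a keratin known from cornea, had 2.9, 0.379 and 0.995 CPM in PBS E2 and 9.09, 11 and 7.06 in DOX E2 (2.60 on the log2 scale), and Atp13a5, a P-type ATPase, 2.65, 0.488 and 0.576 CPM in PBS E2 and 10.6, 5.36 and 5.87 in DOX E2 (2.48). Both lost their call in 4 alternatives, the adipocyte covariate and the removal of PBS E2 replicate 2, of PBS E2 replicate 3, or of DOX E2 replicate 2 for Krt12 and replicate 1 for Atp13a5.

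The 5 largest falls without an E2 call were all in genes of the adipocyte marker list. Cyp2e1 had 451, 19.4 and 63 CPM in PBS E2 and 0.103, 0.0516 and 11.9 in DOX E2, with a log2 fold change of -5.40 ± 1.62 (SE, adjusted p = 0.0156). Retn, Cfd, Car3 and Plin1, which encode resistin, adipsin, carbonic anhydrase 3 and perilipin 1, showed the same order of libraries, with PBS E2 replicate 1 highest and DOX E2 replicate 3 the highest of its group. Their log2 fold changes were -5.39, -5.30, -5.22 and -4.83. Cyp2e1, Cfd, Car3 and Plin1 lost their call without PBS E2 replicate 1, DOX E2 replicate 1 or DOX E2 replicate 2. They also lost it with only the groups compared. With limma voom Cyp2e1 and Cfd were not called, with a replicate block Cfd was not, and with the adipocyte covariate Retn and Car3 were not. In the fit with the adipocyte covariate the fold changes of Cyp2e1, Cfd and Plin1 turned positive. These genes enter that covariate themselves, so no conclusion is drawn from the turn.

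**Figure D3:**
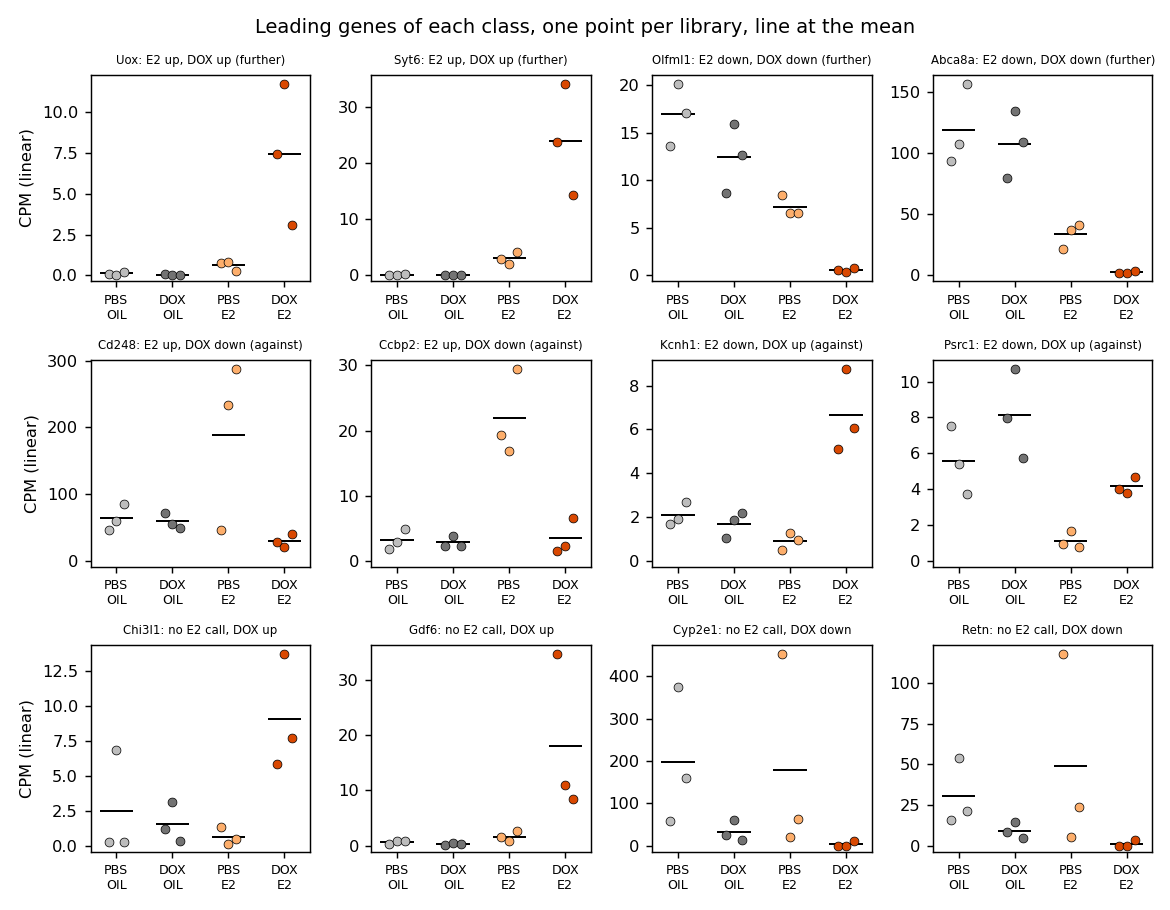
CPM (y axis, linear) of 2 genes with large DOX changes in each of the 6 classes, in PBS OIL, DOX OIL, PBS E2 and DOX E2 (x axis). Points are libraries and lines are means. DOX E2 stands apart from PBS E2 in all 12 panels by the rule that chose the genes, and in the panels of Cyp2e1 and Retn PBS E2 replicate 1 is far above the other PBS E2 libraries.

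The machinery that makes, folds and ships secreted protein rose together. Of 30 ER chaperone and unfolded protein response genes, 26 were higher and 0 lower, with a median log2 fold change of 0.75 (0.02 over all genes, of which 20.4% were higher). Of these, 20 went further up. Hsp90b1, the ER member of the HSP90 family, had 363, 390.2 and 372 CPM in PBS OIL, 626, 537 and 505 in PBS E2 and 1499.7, 1379 and 1193 in DOX E2. The lowest DOX E2 library was thus well above the highest PBS E2 library, and the log2 fold change was 1.29 ± 0.12 (SE, adjusted p = 3.58e-06). Calr, a calcium-binding lectin chaperone, had 665, 555 and 548 CPM in PBS E2 and 1346, 1213 and 1115 in DOX E2 (1.06 ± 0.12, SE, adjusted p = 1.26e-05). Pdia4, a disulfide isomerase without an E2 call, had 102, 102 and 90.1 CPM in PBS E2 and 270.3, 239.8 and 202 in DOX E2 (1.28 ± 0.12, SE, adjusted p = 3.97e-06), and Pdia3 493, 433 and 433 CPM in PBS E2 and 893, 811 and 757 in DOX E2 (0.86 ± 0.08, SE, adjusted p = 3.88e-06). The DOX effect differed from that under OIL for 22 of the 30 and from that under P4 for 19.

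Promoter sequence was a property that the comparison had not used. The ER stress element, CCAAT and CCACG separated by 9 bases of any kind and read on either strand, which ATF6 and NF-Y are known to bind, was searched in RefSeq promoters from 250 bases before to 50 after each start (GRCm38.p6). It occurred in 0.119% of all 32851 promoters and in 22 of 11922 tested genes with a promoter (0.185%). Among these 22 genes, 12 were higher, 3 lower and 7 not called. It was present in 9 of the 26 genes of the ER list with a promoter, all 9 of them higher. They ranged from Creld2 at 1.54, Hspa5 at 1.39 and Pdia6 at 1.35 on the log2 scale to Ero1lb at 0.54. In the whole ER list 26 of 30 genes were higher, with or without the element. Of the 13 genes with the element outside the list, 3 were higher (Alg12, Hnrnpa3 and Zfp57), near the 20.4% of all genes. Such elements are known in promoters of this gene family, so this is a description. Upstream stretches show it in capitals for the list genes with the element and the smallest p, which are not those with the largest rises. In Hsp90b1 it occurs once on each strand.
Hsp90b1 (chr10:86705508-86705681, minus strand): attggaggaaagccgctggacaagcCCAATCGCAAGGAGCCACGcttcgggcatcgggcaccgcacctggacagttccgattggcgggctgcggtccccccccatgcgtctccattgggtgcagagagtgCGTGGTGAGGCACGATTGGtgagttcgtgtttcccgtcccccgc
Calr (chr8:84847050-84847118, minus strand): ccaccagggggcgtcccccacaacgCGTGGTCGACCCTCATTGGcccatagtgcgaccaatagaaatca
Canx (chr11:50325775-50325843, minus strand): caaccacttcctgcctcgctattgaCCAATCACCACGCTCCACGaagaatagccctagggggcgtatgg
Dnajc3 (chr14:118937802-118937870, plus strand): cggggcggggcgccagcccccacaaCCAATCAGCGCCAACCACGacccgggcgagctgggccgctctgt
Canx, the membrane-bound lectin chaperone, and Dnajc3, an ER co-chaperone that restrains the kinase PERK, rose by 0.80 and 0.96 on the log2 scale.

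The steps before and after folding moved the same way. Of 22 genes of the ER translocon, signal recognition particle and signal peptidase, 21 were higher and 0 lower (median 0.59), 19 of them further up. That is 95.5% higher, against 20.4% of all genes. Sec61b, a translocon subunit, had 22.2, 21.7 and 19.6 CPM in PBS OIL, 42, 30.9 and 33.3 in PBS E2 and 78.8, 72.4 and 64.5 in DOX E2 (1.02 ± 0.13, SE, adjusted p = 3.46e-05). Spcs2 and Sec11c, subunits of signal peptidase, had fold changes of 0.72 ± 0.07 (SE, adjusted p = 6.83e-06) and 0.88 ± 0.11 (SE, adjusted p = 2.41e-05), and Sec61a1, the channel itself, of 0.84 ± 0.10 (SE, adjusted p = 2.99e-05). Of 25 N-glycosylation genes, 21 were higher and 0 lower (median 0.51). Rpn1, of the oligosaccharyl transferase that puts the sugar on the chain, had 316, 275 and 272 CPM in PBS E2 and 474, 466 and 442 in DOX E2 (0.68 ± 0.08, SE, adjusted p = 2.14e-05). The catalytic subunit Stt3a rose by 0.68, Rpn2 by 0.61 and the mannosyltransferase Alg2 by 0.79. Of 30 genes of COPII and COPI vesicles, 24 were higher and 0 lower (median 0.43). Lman1, a cargo receptor for glycoproteins and without an E2 call, had 86.4, 89.2 and 95 CPM in PBS OIL, 101, 98.9 and 90.7 in PBS E2 and 196, 183 and 164 in DOX E2 (0.90 ± 0.08, SE, adjusted p = 1.81e-06). Tmed9, Surf4 and Tmed2, further cargo receptors, rose by 0.70, 0.68 and 0.61. With the adipocyte covariate the glycosylation list had 11 higher genes.

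**Figure D4:**
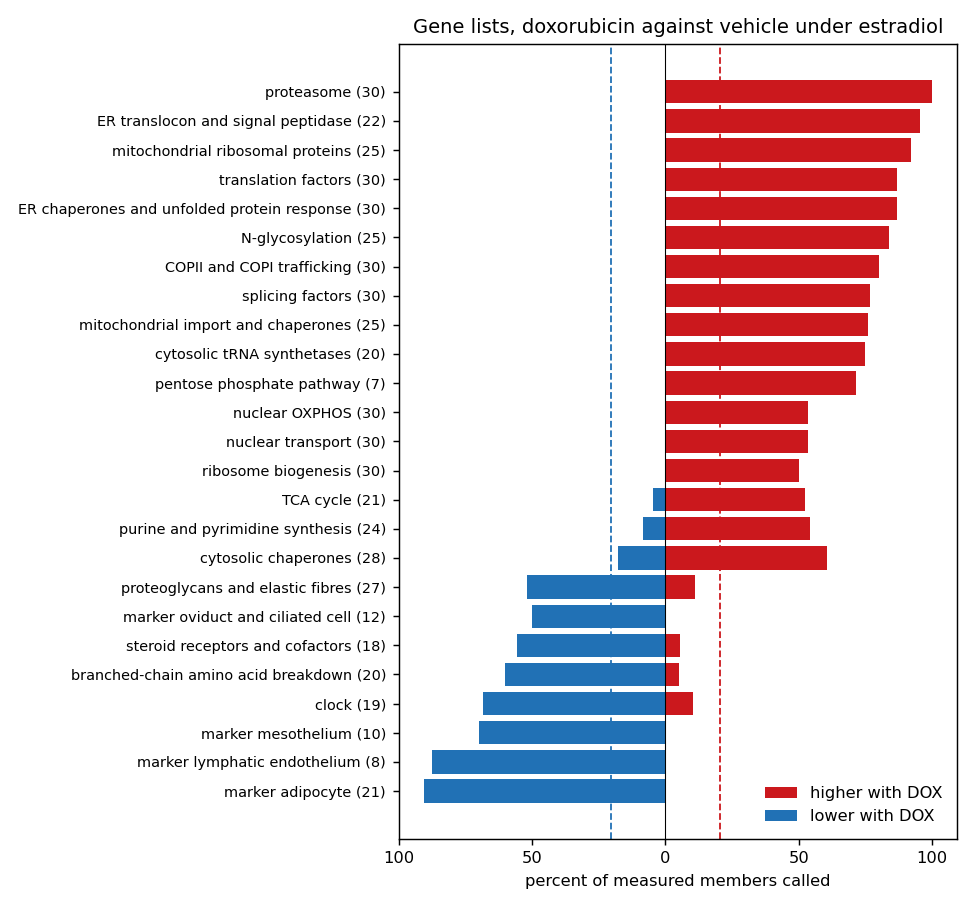
Percent of measured members (x axis) called higher (right) or lower (left) with DOX under E2, for the gene lists in which at least 50% were called in 1 direction (y axis, number of measured members in brackets). Dashed lines mark the shares over all tested genes, 20.4% higher and 20.6% lower. The proteasome bar reaches 100%.

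Every proteasome gene measured was higher, 30 of 30 against 20.4% of all genes. They were 29 further up and Psmb1 without an E2 call, with a median log2 fold change of 0.50 and a range from 0.32 for Psmb1 to 0.94 for Psmd14. All 30 were also called when any of the E2 libraries was left out. Psmd14, the deubiquitinase of the regulatory lid (chr2:61711694-61800376, plus strand), had 34.3, 35.1 and 34.7 CPM in PBS OIL, 87.5, 57.4 and 63.7 in PBS E2 and 148, 131 and 122 in DOX E2 (0.94 ± 0.13, SE, adjusted p = 6.71e-05). Psma1, of the core ring, had 103, 89.6 and 91.8 CPM in PBS E2 and 154, 147 and 135 in DOX E2 (0.61 ± 0.07, SE, adjusted p = 1.36e-05). The ATPase subunit Psmc1 and the lid subunit Psmd6 changed by 0.60 ± 0.07 (SE, adjusted p = 2.90e-05) and 0.61 ± 0.08 (SE, adjusted p = 6.14e-05). The DOX effect differed from that under OIL for 28 of the 30 and from that under P4 for 29, while the list medians under OIL and P4 were -0.01 and -0.02.

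Cytosolic chaperones rose more often than all genes. Of 28 measured, 17 were higher (60.7%, against 20.4% of all genes), all of them further up. Another 5 were lower, 4 of them against the E2 direction. That is 17.9% of the list, below the 20.6% of all genes, so the falls do not mark the list as a whole. The higher genes included 8 subunits of the CCT ring, which folds actin and tubulin. Cct7 had 154, 138 and 143 CPM in PBS OIL, 411, 304 and 339 in PBS E2 and 583, 509 and 531 in DOX E2 (0.62 ± 0.10, SE, adjusted p = 0.000261), and Cct8 and Tcp1 rose by 0.61 and 0.54. Hspa8 and Hsp90ab1, the constitutive HSP70 and HSP90, had log2 changes of 0.84 and 0.50. The lower genes with an E2 rise are known to be heat-inducible. Dnajb1, an HSP40, had 38.6, 37.9 and 40.1 CPM in PBS OIL, 108, 115 and 102 in PBS E2 and 56.2, 56.5 and 72.1 in DOX E2 (-0.81 ± 0.15, SE, adjusted p = 0.00056), so that DOX E2 lay between the others. The others were Hspa1a at -0.66, Hspa1b at -0.64 and Bag3 at -0.28. Hspa1a and Hspa1b are near-identical copies whose reads the counting could have split. The falls were less firm than the rises. Lower genes numbered 3 without DOX E2 replicate 1, 2 without DOX E2 replicate 2 and 1 with the adipocyte covariate. The rises numbered 8 with that covariate.

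Genes of translation and RNA handling rose by small amounts. Of 30 translation factors 26 were higher (86.7%, against 20.4% of all genes) and 0 lower (median 0.43). Eif5, which triggers start codon commitment, had 561, 359 and 439 CPM in PBS E2 and 763, 743 and 775 in DOX E2 (0.75 ± 0.13, SE, adjusted p = 0.000328). Eif3b had 487, 377 and 386 CPM in PBS E2 and 628, 598 and 612 in DOX E2 (0.56 ± 0.10, SE, adjusted p = 0.00062). Of 20 cytosolic tRNA synthetases, which charge tRNAs with amino acids, 15 were higher, all further up (median 0.50). Mars, for methionine, had 37.2, 39.5 and 36 CPM in PBS OIL, 123, 87.2 and 97.5 in PBS E2 and 171, 160.0 and 172 in DOX E2 (0.71 ± 0.11, SE, adjusted p = 0.000156). Of 30 ribosome biogenesis genes, 15 were higher. Npm1, a nucleolar chaperone of ribosome assembly, had 894, 817 and 806 CPM in PBS E2 and 1619, 1321 and 1253 in DOX E2 (0.74 ± 0.12, SE, adjusted p = 0.000266). These 4 genes were named for their small p, and DOX E2 was higher without overlap in each. Of all tested genes 49.3% did not overlap, in either direction. Of 30 splicing factors 23 were higher (median 0.32), with Hnrnpa3, the gene with the smallest p, at 0.61 ± 0.08 (SE, adjusted p = 3.11e-05), and of 30 nuclear transport genes 16 were higher (median 0.32), with Nup205 of the pore's inner ring, the gene with the smallest p, at 0.50 ± 0.08 (SE, adjusted p = 0.00026). The ribosomal proteins themselves gave 5 higher genes of 30, which is 16.7% and below the share over all genes.

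These counts were less stable than those of the ER and the proteasome. With total counts as scaling they were 17 translation factors, 8 ribosome biogenesis, 13 splicing and 9 nuclear transport genes, and with the adipocyte covariate 15, 6, 12 and 8. Without PBS E2 replicate 2 the numbers were 15 translation factors, 7 ribosome biogenesis genes, 10 nuclear transport genes and 3 ribosomal proteins. Without PBS E2 replicate 3 there were 9 tRNA synthetases, 9 ribosome biogenesis genes and 3 ribosomal proteins. Without DOX E2 replicate 1 there were 16 translation factors, 8 ribosome biogenesis, 15 splicing and 10 nuclear transport genes and 3 ribosomal proteins. In a fit of only the groups compared, 17 translation factors, 8 tRNA synthetases and 14 splicing factors were higher. With limma voom, 16 of the 30 ribosomal proteins were higher.

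Nuclear genes of mitochondria rose at the steps of protein import and synthesis. Of 25 mitochondrial ribosomal proteins 23 were higher (92%, against 20.4% of all genes) and 0 lower (median 0.41), 14 further up and 9 with no E2 call. Mrpl3 had 37.4, 32.7 and 33.8 CPM in PBS OIL, 64, 49.6 and 50.6 in PBS E2 and 81.1, 76.5 and 78.4 in DOX E2 (0.52 ± 0.09, SE, adjusted p = 0.000318), and Mrps12 22.9, 20.2 and 18.2 in PBS E2 and 36.1, 31.3 and 30.6 in DOX E2 (0.67 ± 0.13, SE, adjusted p = 0.0009). Of 25 import and chaperone genes 19 were higher. Tomm20, the receptor of the outer membrane, had 147, 118 and 136 CPM in PBS E2 and 196, 172 and 181 in DOX E2 (0.45 ± 0.08, SE, adjusted p = 0.000484), and Hspe1, the lid of the matrix chaperonin, 103, 91.3 and 113 CPM in PBS E2 and 173, 139 and 139 in DOX E2 (0.55 ± 0.12, SE, adjusted p = 0.00185). Respiratory chain genes had 16 of 30 higher, with cytochrome c (Cycs) at 0.77 ± 0.15 (SE, adjusted p = 0.00117). In the TCA cycle 11 of 21 were higher and 1 was lower. The exception was Idh2, the NADP-dependent isocitrate dehydrogenase, with 57.1, 93 and 82.7 CPM in PBS E2 and 45.8, 34.6 and 43.2 in DOX E2 (-0.91 ± 0.15, SE, adjusted p = 0.000318), whereas the NAD-dependent Idh3a rose by 0.54. Without DOX E2 replicate 1, 14 ribosomal, 8 import and 4 TCA cycle genes were higher. Without PBS E2 replicate 2 the import and TCA counts were 12 and 7, and without PBS E2 replicate 3 the import count was 12. The adipocyte covariate left the 4 lists 8, 6, 10 and 5 higher genes, and with total counts the import and TCA lists had 12 and 6. In a fit of only the groups compared, 13 ribosomal, 10 import and 3 TCA cycle genes were higher.

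Nucleotide synthesis had 13 of 24 genes higher and 2 lower (54.2% and 8.33%, against 20.4% and 20.6% of all genes). Impdh2, the rate-limiting step to guanine nucleotides, had 272, 228 and 224 CPM in PBS E2 and 399, 365 and 361 in DOX E2 (0.64 ± 0.11, SE, adjusted p = 0.000303). Of the pair of CTP synthases, Ctps2 fell further, from 36, 45.4 and 41.3 CPM to 23.8, 19.4 and 22.6 CPM (-0.90 ± 0.10, SE, adjusted p = 9.25e-06), while Ctps rose by 0.49. G6pdx, the entry enzyme of the pentose phosphate pathway, had 44.7, 47.5 and 46.8 CPM in PBS OIL, 101, 53.7 and 55.5 in PBS E2 and 162, 155 and 124 in DOX E2 (1.06 ± 0.18, SE, adjusted p = 0.00036). PBS E2 replicate 1 lay between the remaining vehicle libraries and DOX E2. Of the 7 genes of that pathway 5 were higher (71.4%, against 20.4% of all genes). The count was 2 when PBS E2 replicate 2, PBS E2 replicate 3 or DOX E2 replicate 1 was left out. It was also 2 with total counts or with only the groups compared, and 1 with the adipocyte covariate.

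Genes of branched-chain amino acid breakdown fell more often than not. Of 20 measured, 12 were lower and 1 higher (median -0.36, with 20.6% of all genes lower), 8 of them further down. Bckdha, the E1 alpha subunit of the complex that commits these amino acids to oxidation (chr7:25629946-25658981, minus strand), had 94.5, 84.4 and 74.5 CPM in PBS OIL, 39.2, 42.8 and 41.6 in PBS E2 and 14, 10.5 and 11.6 in DOX E2. The libraries fell into separate levels by group, and the log2 fold change was -1.78 ± 0.14 (SE, adjusted p = 1.14e-06). Aldh6a1, of the valine branch, had 124, 96.8 and 133 CPM in PBS E2 and 38.6, 29.9 and 39.8 in DOX E2 (-1.71 ± 0.13, SE, adjusted p = 1.14e-06). Mcee and Pcca, of propionate disposal, changed by -1.04 ± 0.15 (SE, adjusted p = 9.09e-05) and -0.89 ± 0.14 (SE, adjusted p = 0.000195). The exception was Dbt, the acyltransferase subunit of the same complex, at 0.49. Without DOX E2 replicate 2, or with the adipocyte covariate, 7 genes were lower. Fatty acid oxidation had 7 of 23 lower and 3 higher, with Acadm at -1.36, Hadh at -1.33 and Acads at -1.12, all further down. In a fit of only the groups compared, 0 genes of that list were higher.

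Lysosomal genes and inhibitors of growth signalling that E2 had lowered were in part lowered again. Of 30 lysosome and autophagy genes 14 were lower, 13 of them further down, and 5 were higher (46.7% and 16.7%, against 20.6% and 20.4% of all genes). Ctsf, a cathepsin, was at -1.73, Ulk1, the kinase that starts autophagy, at -0.91, and Gabarapl1 at -0.99, whereas Ctsb, another cathepsin, was at 1.16. Without PBS E2 replicate 2, or with only the groups compared, the higher genes numbered 3, and 8 with limma voom. Of 28 FOXO targets and inhibitors of PI3K and mTORC1, 10 were lower (35.7%) and 6 higher (21.4%, near the share over all genes). All 10 lower genes were further down. They included Pdk2 at -2.39, Pik3ip1 at -2.14, Bnip3 at -2.07, Foxo4 at -1.82 and Deptor at -1.70, the last of which binds and inhibits mTOR. Of the 6 higher genes 4 moved against the E2 direction. These were Ddit4l, described above, Pdk4 at 1.16, Arrdc3 at 0.70 and Ccng2 at 0.49. With only the groups compared, 3 were higher. The list was mixed, with a median of -0.02, and E2 alone had lowered 23 of its 28 genes.

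Clock genes fell in most cases. Of 19 measured, 13 were lower and 2 higher (68.4% and 10.5%, against 20.6% and 20.4% of all genes, median -1.22). The output factors that are normally high in the same phase as Dbp fell, Tef with 245, 374 and 357 CPM in PBS E2 and 82.8, 84.2 and 109 in DOX E2 (-1.82 ± 0.16, SE, adjusted p = 2.53e-06). Nr1d1, a repressor of the positive limb, had 77.7, 85.7 and 91.2 CPM in PBS E2 and 8.73, 9.03 and 14.5 in DOX E2 (-2.97 ± 0.29, SE, adjusted p = 5.09e-06), and Per3 74.1, 144 and 122 CPM in PBS E2 and 24.8, 28.7 and 31.5 in DOX E2 (-2.00 ± 0.20, SE, adjusted p = 6.59e-06). The higher genes were Arntl at 1.35 and Npas2 at 1.0, both of the positive limb. By E2 direction 8 of the 13 went further down, 2 had no E2 call, and Gm129 (an older name of Ciart), Per2 and Bhlhe40 moved against a rise with E2. The hour of collection is not given, so a shift of phase and a change of level cannot be told apart. The E-box CACGTG is a palindrome bound by the CLOCK and ARNTL pair. It was found in any promoter of 5 of 16 clock genes (31.2%) and of 11.1% of tested genes with a promoter. Of all single promoters 7.15% held it, a share per promoter that is not on the scale of the shares of genes. Promoter stretches of Tef and Per1 are shown with the E-box in capitals. Per1 was at -1.88 with no E2 call.
Tef (chr15:81802521-81802576, plus strand): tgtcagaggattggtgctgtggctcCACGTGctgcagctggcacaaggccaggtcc
Per1 (chr11:69098758-69098813, plus strand): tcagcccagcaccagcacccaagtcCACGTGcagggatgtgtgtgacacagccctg

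Receptors and local signals fell more often than they rose. Of 18 steroid receptors and cofactors 10 were lower and 1 higher (55.6% and 5.56%, against 20.6% and 20.4% of all genes). Esr1, the estrogen receptor itself, had 597, 517 and 677 CPM in PBS OIL, 507, 802 and 777 in PBS E2 and 492, 356 and 434 in DOX E2 (-0.70 ± 0.15, SE, adjusted p = 0.00197). Pgr, the progesterone receptor and a direct E2 target, had 346, 271 and 414 CPM in PBS E2 and 468, 392 and 462 in DOX E2, against 45.4, 39.6 and 67.5 in PBS OIL, and its DOX change of 0.36 ± 0.19 (SE, adjusted p = 0.152) did not pass. The mineralocorticoid receptor Nr3c2 had 14.1, 22.2 and 28.7 CPM in PBS E2 and 9.24, 9.34 and 7.43 in DOX E2 (-1.32 ± 0.23, SE, adjusted p = 0.000424), and the glucocorticoid receptor Nr3c1 89.5, 88.6 and 102 CPM in PBS E2 and 47.2, 53.8 and 60.7 in DOX E2 (-0.79 ± 0.13, SE, adjusted p = 0.000369). Gpr30, an older symbol of the membrane receptor Gper1, was at -2.57 ± 0.48 (SE, adjusted p = 0.000725).

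Of 36 Wnt pathway genes 17 were lower (47.2%, against 20.6% of all genes) and 4 higher (11.1%). The lower ones included the ligands Wnt2 at -1.96 and Wnt11 at -1.28 and the secreted inhibitors Sfrp2 at -2.10 and Dkk3 at -1.44, so both ligands and inhibitors were among the lower genes. Wnt5a, a ligand of the non-canonical branch, was higher at 1.15. Of 36 growth factors and receptors 17 were lower (47.2%) and 5 higher (13.9%). Hgf was at -1.62, Igf1r at -1.03 and Fgfr2 at -0.84, while Areg was at 2.49, Egfr at 1.2 and Igf1 at 0.79. Fgf1, Fgfr1, Fgfr3 and Igf2 were lowered against a rise with E2. With the adipocyte covariate each of these lists had 11 lower genes, and 1 and 2 higher genes. The growth factor list had 3 higher genes without PBS E2 replicate 2, PBS E2 replicate 3 or DOX E2 replicate 1, and with only the groups compared. With limma voom 7 Wnt pathway genes were higher.

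Some members of other lists moved against E2. Of 25 immediate early factors 4 were lower (16%) and 1 higher (4%), shares below those over all genes, so the list as a whole did not stand out. Myc at -0.77, Jund at -0.60 and Klf2 at -0.59 had been raised by E2. The count of lower genes was 12 with limma voom, 7 with only the groups compared, 2 without PBS E2 replicate 3, DOX E2 replicate 1 or DOX E2 replicate 2, and 1 with the covariate. Of 32 chromatin modifiers 12 were lower (37.5%) and 2 higher (6.25%). Arid1a at -0.45, Kdm6b at -0.55, Ep300 at -0.33, Arid2 at -0.33 and Setd2 at -0.26 moved against a rise with E2, while the SWI/SNF ATPases went opposite ways, Smarca2 at -1.74 and Smarca4 at 0.41. Of 33 genes of TGF-beta and BMP signalling 9 were lower (27.3%) and 2 higher (6.06%), with 5 lower in the fit with the covariate, with only the groups compared, or without PBS E2 replicate 2, PBS E2 replicate 3 or DOX E2 replicate 1. Id1 at -0.68 and Id3 at -1.41, inhibitors of basic helix-loop-helix factors and targets of BMP signals, were lowered after a rise with E2.

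Of 27 small proteoglycans and elastic fibre genes 14 were lower and 3 higher (51.9% and 11.1%, against 20.6% and 20.4% of all genes, median -0.84). Prelp, a leucine-rich proteoglycan, had 236, 288 and 300.2 CPM in PBS OIL, 112, 138 and 137 in PBS E2 and 21.4, 26.9 and 35 in DOX E2 (-2.22 ± 0.23, SE, adjusted p = 7.21e-06). Mfap2, a microfibril protein, had 7.18, 16.6 and 15.4 CPM in PBS E2 and 4.6, 3.61 and 2.88 in DOX E2 (-1.82 ± 0.27, SE, adjusted p = 0.000144). Decorin (Dcn), lumican (Lum), fibromodulin (Fmod) and biglycan (Bgn) were at -1.2, -1.23, -1.44 and -1.04. Ltbp1, which stores latent TGF-beta, was higher, with 251, 215 and 183 CPM in PBS E2 and 392, 448 and 414 in DOX E2 (0.95 ± 0.16, SE, adjusted p = 0.000298). The list had 5 lower genes with the adipocyte covariate, and without PBS E2 replicate 1 it had 5 higher, as with DESeq2, and 6 higher with limma voom.

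Markers of fat, lymphatics and mesothelium fell. Of 21 adipocyte markers 19 were lower (90.5%, against 20.6% of all genes, median -3.62), 17 of them without an E2 call. Of 8 lymphatic endothelial markers 7 were lower (median -1.5), and their mean log2 CPM was 4.58, 4.60 and 5.24 in PBS E2 and 2.38, 3.48 and 3.94 in DOX E2. Prox1, the factor that defines lymphatic identity, had 2.14, 2.17 and 4.4 CPM in PBS E2 and 0.155, 0.928 and 1.11 in DOX E2 (-1.95 ± 0.56, SE, adjusted p = 0.0119), and Ccl21a, a chemokine of lymphatics with near-identical copies, 57.2, 55.3 and 87.2 CPM in PBS E2 and 8.06, 15.8 and 29.3 in DOX E2 (-1.90 ± 0.51, SE, adjusted p = 0.00784). Of 10 mesothelial markers 7 were lower (median -1.59), with mean log2 CPM of 4.74, 4.62 and 4.61 in PBS E2 and 2.26, 2.50 and 4.15 in DOX E2. Upk3b had 60.6, 47.6 and 59.4 CPM in PBS E2 and 6.71, 7.79 and 34.9 in DOX E2 (-1.75 ± 0.48, SE, adjusted p = 0.00907). DOX E2 replicate 3, which had the most fat RNA of its group, was also its highest library for all 3 marker means. Under OIL the median log2 fold change of DOX was -1.66 for the adipocyte, -0.17 for the lymphatic and 0.39 for the mesothelial list. The DOX effect differed from that under OIL for 4 of 21, 0 of 8 and 5 of 10 markers. It differed from that under P4 for 8, 1 and 4. Leaving out PBS E2 replicate 1, DOX E2 replicate 1 or DOX E2 replicate 2 left 5, 7 or 9 adipocyte calls. Leaving out PBS E2 replicate 3, DOX E2 replicate 1 or DOX E2 replicate 2 left 2, 4 or 4 lymphatic and 4, 4 or 4 mesothelial calls. The adipocyte covariate left 2, 0 and 2 calls. That covariate is the mean of these same 21 adipocyte markers. The loss of adipocyte calls therefore follows in large part from its construction. With only the groups compared, 9 adipocyte and 3 mesothelial calls were left.

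Of 12 markers of oviduct and ciliated cells 6 were lower, and 6 with the adipocyte covariate as well. Their mean log2 CPM was 1.29, 1.99 and 1.52 in PBS E2 and 0.34, 0.39 and 0.71 in DOX E2. Rfx2, a transcription factor of ciliogenesis, had 34.4, 34 and 31.8 CPM in PBS E2 and 8.68, 9.64 and 10.3 in DOX E2 (-1.81 ± 0.15, SE, adjusted p = 1.52e-06). Under OIL it rose, by 0.95 ± 0.14 (SE, adjusted p = 0.047), from 27.2, 38.1 and 27.7 to 56.4, 60.2 and 63.2 CPM. DOX under OIL called 2 of the 15494 tested genes, 1 higher and 1 lower, so Rfx2 was the only called rise there. DOX under P4 called 0 genes. Ccdc39, which sets the spacing of axonemal arms, had 4.07, 5.96 and 4.51 CPM in PBS E2 and 0.981, 1.03 and 1.11 in DOX E2 (-2.20 ± 0.19, SE, adjusted p = 2.09e-06). Of the main cell types of the organ, 20 luminal epithelial markers gave 4 higher and 0 lower, 20 smooth muscle markers 1 higher and 3 lower, 20 stromal markers 3 higher and 5 lower, 20 endothelial markers 3 higher and 2 lower, and 19 macrophage markers 0 higher and 1 lower. The shares of higher genes, 20% for the luminal, 15% for the stromal and endothelial and 5% for the muscle list, were at or below the 20.4% of all genes, and 25% of stromal and 15% of muscle markers were lower against 20.6%. The luminal mean log2 CPM was nonetheless higher in DOX E2 without overlap, at 5.78, 5.67 and 5.34 against 5.23, 5.29 and 4.86 in PBS E2. The smooth muscle mean was lower without overlap (7.98 to 8.18 against 8.27 to 8.43). So were the means of pericyte (4.60 to 4.77 against 5.03 to 5.39), nerve and dendritic cell markers. Lower were 4 of 10 pericyte, 5 of 12 nerve and 4 of 11 dendritic markers, and 0 were higher. With the adipocyte covariate 3 nerve and 0 dendritic markers were lower. The median log2 fold change of the luminal list was 0.31. Whether the share of epithelium changed was not tested. The luminal count of higher genes was 2 without PBS E2 replicate 3, DOX E2 replicate 1 or DOX E2 replicate 2. The stromal count of higher genes was 1 without PBS E2 replicate 2 or without any of the DOX E2 libraries, and the endothelial count was 1 without PBS E2 replicate 3 or DOX E2 replicate 2 and 5 without PBS E2 replicate 1. With limma voom 11 luminal and 7 endothelial markers were higher and 7 muscle and 9 stromal markers lower. With only the groups compared 8 muscle markers were lower and 1 endothelial marker higher, total counts gave 6 lower muscle markers and DESeq2 5, and the adipocyte covariate left 1 higher luminal and 2 lower stromal markers and gave 6 higher endothelial ones.

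Targets of p53 were higher more often than all genes, and DNA repair genes were not. Cdkn1a, the cell cycle inhibitor p21, had 19.5, 30.1 and 16.6 CPM in PBS OIL, 166, 89.6 and 102 in PBS E2 and 172, 206 and 206 in DOX E2. E2 alone had raised it, and the DOX change of 0.70 ± 0.33 (SE, adjusted p = 0.0992) did not pass, but it passed with limma voom at 0.93 (adjusted p = 0.00447) and without PBS E2 replicate 1 at 1.02 (adjusted p = 0.0312), with adjusted p from 0.00447 to 0.286 over the 16 alternatives. Mdm2, the ubiquitin ligase of p53, had 81.7, 75.1 and 72.4 CPM in PBS E2 and 102, 106 and 111 in DOX E2 (0.48 ± 0.10, SE, adjusted p = 0.00181). Of 30 p53 targets 13 were higher (43.3%) and 4 lower (13.3%), against 20.4% and 20.6% of all genes, with Ccng1 at 1.27, Zmat3 at 1.02, Phlda3 at 0.93 and Bax at 0.70 among the higher and Ddb2 at -0.95 and Sesn1 at -0.84 among the lower. By E2 direction the higher genes were spread over 5 further up, 3 against and 5 without an E2 call. Of 32 DNA repair genes 6 were higher (18.8%) and 4 lower (12.5%), and each count moved by more than 1.5-fold when single E2 libraries were left out, to 3 higher without PBS E2 replicate 3 or DOX E2 replicate 1, to 2 lower without PBS E2 replicate 3 and to 1 lower without PBS E2 replicate 2 or DOX E2 replicate 2. Top2a, the drug's target in dividing cells, had 17.3, 26.7 and 11.8 CPM in PBS E2 and 50.3, 16.2 and 31.7 in DOX E2 (0.82 ± 0.37, SE, adjusted p = 0.0858), and Top2b, its form in resting cells, 158, 154 and 164 CPM in PBS E2 and 176, 149 and 162 in DOX E2 (0.03 ± 0.10, SE, adjusted p = 0.829). Neither passed here. Top2a passed with limma voom at 1.09 (adjusted p = 0.0108), without PBS E2 replicate 2 at 1.16 (adjusted p = 0.0382) and without DOX E2 replicate 2 at 1.14 (adjusted p = 0.0182), with adjusted p up to 0.521 in the other alternatives.

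Long genes were lowered more often than short ones. Of 15494 tested genes 98.4% had a position in GENCODE M21 (GRCm38), and 14858 protein-coding genes were put in 10 bins by gene length. In the longest bin, from 130836 bp to 2960900 bp, 31.9% were lower and 15.1% higher with a median log2 fold change of -0.20. In the shortest bin, up to 4558 bp, 15.3% were lower and 18.4% higher with a median of 0.07. The change set in at the last bins, with 26.0% lower in the ninth and 20.9% in the eighth. DOX under OIL and under P4 gave medians of 0.02 and 0.07 in the longest bin and -0.06 and -0.09 in the shortest, so the order of the bins was not that seen under E2. E2 alone lowered 31.2% of the longest genes, close to its share in other bins, and raised 15.9%, against 27.9% to 34.1% elsewhere. By class, the median gene length was 36.4 kb for lowered genes without an E2 call, 28.6 kb for genes further down, 22.5 kb for genes further up and 22.7 kb for genes not called. Genes are not independent replicates, and these shares are across genes.

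**Figure D5:**
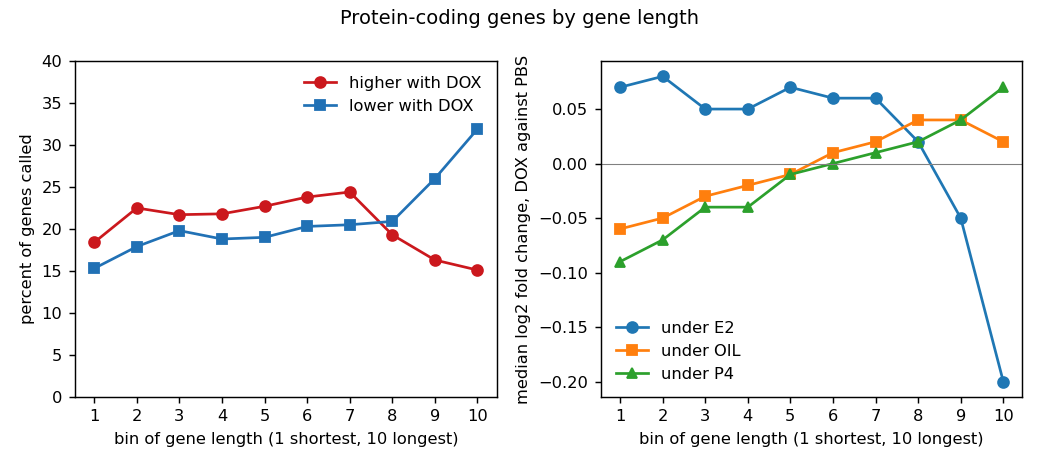
Protein-coding genes in 10 bins by gene length (x axis). Left, the percent called higher or lower with DOX under E2 (y axis), and right, the median log2 fold change of DOX under E2, OIL and P4 (y axis). The share of lowered genes climbs to 31.9% in the longest bin, and the median under E2 falls to -0.20 there.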

How the data were processed

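Whole-uterus total RNA of 18 libraries was sequenced after a TruSeq total RNA preparation, per the labels' protocols. Read counts per gene symbol were deposited by the authors for 22238 symbols, 2904 of them 0 in every library. Per the submitters' processing notes the tools included Trimmomatic 0.36, HISAT2 2.1.0, SAMtools 1.6, StringTie 1.3.4d and DESeq2 1.18.1, with GRCm38. The counting tool, annotation and strand setting were not stated. Genes that overlap or have near-identical copies are therefore uncertain.

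From the counts, edgeR 4.0.16 (R 4.3.3) was fitted to all 6 groups (filterByExpr, TMM, robust quasi-likelihood F test, Benjamini-Hochberg threshold 0.05) with 12 residual degrees of freedom, and the script was tested on simulated data. SE is the fold change over the square root of F. CPM used TMM library sizes, and mean log2 CPM a prior count of 2. Depth was 18042357 to 39783785 counts. Replicates differed by more than sampling noise (chi-square per degree of freedom 16.3 to 72.3). Replicate numbers did not pair the E2 libraries (correlations -0.09, -0.009 and 0.175), so no block was used. Members, gene lists and tests were chosen with earlier results of these data known. Named genes were the 5 with the largest change among called genes of each class (mean log2 CPM of at least 1, E2 groups not overlapping, no clone or predicted symbols), up to 4 with the smallest p in each list with at least 50% called in 1 direction, and Cdkn1a, Mdm2, Top2a, Top2b, Esr1 and Pgr. 1 of these genes is not reported here. Further list members were named after their values were seen. Alternatives were limma 3.58.1 voom, DESeq2 1.42.0, other scalings, filters, covariates and libraries left out. Promoters came from RefSeq (GRCm38.p6) and positions from GENCODE M21.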

Additional observations from a re-analysis of the deposited data

Results flagged for a closer look

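The response to DOX differed between hormone backgrounds for a large share of genes, by tests of the difference itself. The DOX effect under E2 differed from that under OIL for 3553 genes and from that under P4 for 3543 genes (edgeR quasi-likelihood F test, adjusted p under 0.05). Of the genes called for DOX under E2, 2669 differed with the same sign in both tests. Both tests contain the difference between DOX E2 and PBS E2 that called these genes, so neither the sign nor the overlap is independent support. Rfx2, a transcription factor of ciliogenesis, was chosen after its values were seen, because DOX raised it under OIL and lowered it under E2. DOX under OIL called 2 genes in all, and Rfx2 was the only rise among them. Its DOX effect under E2 differed from that under OIL by -2.75 on the log2 scale.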

How the results depend on the processing

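Of the 135 named genes, the called ones held their direction under every alternative, except that the adipocyte covariate turned Cyp2e1 to 0.26, Cfd to 0.39 and Plin1 to 0.53 on the log2 scale. These genes are themselves part of that covariate. Of 131 called genes, 102 kept call and direction in all 16 alternatives and 29 lost the call in at least 1, while 3 genes not called (Cdkn1a, Top2a and Pgr) gained it in at least 1, Pgr only with the replicate block at 0.38 (adjusted p = 0.0268). Counts moved more. With limma voom there were 694 higher genes of at least 2-fold, 5331 and 6203 genes differing from OIL and P4, 585 and 744 genes against E2 (lowered and raised, 1329 in all) and 1345 raised with no E2 call. With only the groups compared, 1885 genes were higher, 1096 further up, 1134 further down (2230 together), 103 against and raised, and 321 against in all. With the adipocyte covariate 3846 were called, 1678 higher, 2102 differed from P4, 1205 were further up, 89 and 115 against E2 (204 in all), and 358 raised and 511 lowered with no E2 call. With total counts, an alternative chosen after seeing the data, 1841 were higher, 974 further up and 584 raised with no E2 call. With the E2 direction from the DOX arm, 2799 were further down, 77 and 115 against E2 (192 in all), and 416 raised and 320 lowered with no E2 call. Requiring 2-fold in both comparisons left 136 further up, 508 further down (644 together), 35 and 34 against E2 (69 in all) and 262 raised with no E2 call. Leaving out 1 library gave 4684 to 6822 calls, 1983 to 3478 higher, 1241 to 1994 further up, 204 to 378 against and raised, 373 to 654 against in all (675 without both PBS E2 replicate 1 and DOX E2 replicate 3, also chosen after seeing the data), and 538 to 1141 raised with no E2 call. The cause of these differences was not tested. A replicate block called 6381 genes, 6143 of them shared with the fit without it, and the replicate numbers gave no sign of pairing.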
